A study of Homo sapiens with 6 samples.

Results

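Protease inhibitors were followed as a gene group in A673 Ewing sarcoma cells with and without knockdown of EWSR1::FLI1, the chimeric transcription factor that drives this tumor. The group was taken by name: every gene symbol of the serpin family (SERPIN followed by a clade letter from A to I and a number), TIMP1 to TIMP4, and A2M, A2ML1, PZP, PI3, SLPI, RECK, CST3, CST6, CSTA, CSTB and WFDC1. This gave 50 genes of the 26364 gene symbols with deposited values, 35 of them serpins. The rule uses names alone, but it was set with earlier results of these data known.

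Protease inhibitors set how long and how far an active protease can cut. Most serpins act as baits: the protease cleaves an exposed loop, the serpin changes shape, and both partners are locked in a complex that cell surface receptors take up. TIMPs block the catalytic site of matrix metalloproteases, alpha-2-macroglobulin cages proteases of every class, cystatins block cysteine cathepsins, and the small proteins with a whey acidic protein domain block elastase-like serine proteases. In solid tumors, secreted serpins and TIMPs are known parts of the balance that decides how much extracellular matrix is degraded, and some serpins, such as the collagen chaperone SERPINH1, inhibit no protease at all.

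The cells were A673/TR/shEF, an A673 line that carries the tetracycline repressor and a doxycycline-inducible short hairpin RNA against the EWSR1::FLI1 mRNA, and all 6 libraries came from it. The EWSR1::FLI1 high group held 3 samples left untreated, and the EWSR1::FLI1 low group held 3 samples given doxycycline at 1 µg/mL for 72 h. Whole transcriptomes were sequenced after depletion of ribosomal RNA. The only model was this engineered line, and the effects of doxycycline itself and of the knockdown cannot be told apart in these samples. The study's description calls the samples of a group independent clones, whereas their titles number them as experiments, so the p-values measure the spread between these samples and no more.

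Values are FPKM as deposited for each gene and library, the fragment number scaled by gene length and by a size factor per library. Each series of values below is given in the order replicate 1, 2, 3. Differences were tested with limma on log2(FPKM + 1) in the 15504 genes whose FPKM averaged 0.5 or more, and p-values were adjusted by the Benjamini-Hochberg method over all of them. A gene was called higher or lower in EWSR1::FLI1 low at an adjusted p under 0.01. Fold changes on this scale understate those of genes with low values. The libraries held between 6980361 and 16658933 reads assigned to genes. EWSR1::FLI1 low replicate 1 stood apart: it had the fewest reads, and its FPKM values summed over all genes to 255956, against 334614 to 366060 in the other libraries. Even so, it had the most genes above 0, with 23458 against 22090 to 23156 in the other libraries. The size factors did not follow the read totals. That of EWSR1::FLI1 low replicate 1 was 0.951, above the 0.853 of EWSR1::FLI1 high replicate 2, which had 7800264 reads. The part of this scaling in its low FPKM values was not tested. Results that rest on EWSR1::FLI1 low replicate 1 are given with and without it. FLI1, whose 3' part is shared with the fusion transcript, was measured at 11.3, 12.7 and 14.2 FPKM in EWSR1::FLI1 high and, in EWSR1::FLI1 low, at 2.91, 4.29 and 3.68 FPKM, a log2 fold change of -1.57 (SE 0.18, adjusted p = 0.000676). The Ewing sarcoma markers PRKCB, STEAP1, CCND1, NR0B1 and NKX2-2 were also lower. Thus 6 of 8 listed markers passed the limit, against 3.37% of all genes tested that were called lower. NR0B1 and NKX2-2 did not pass in each fit with a library left out (adjusted p up to 0.0119 and 0.0130).

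Of the 50 inhibitor genes, 7 were higher in EWSR1::FLI1 low, among them A2M, SERPINA3, PI3, SERPINE2, TIMP2 and SERPINI1. None was lower. These were 7 of the 29 inhibitor genes with enough signal to be tested, against 4.51% of all genes tested that were called higher, and 0 of 29 against the 3.37% called lower. At an adjusted p under 0.05 the count was 12, with CST3, SERPINB6, SERPINH1, SLPI and TIMP1 added (9.87% of all genes), and it stayed at 0 for lower values (9.91% of all genes). CSTA, with an unadjusted p of 0.0157, was the only inhibitor gene lower at an unadjusted p under 0.05, and limma-voom on recovered reads also called 0 inhibitor genes lower. In 17 of the 29 genes each EWSR1::FLI1 low library lay above each EWSR1::FLI1 high library, against 17.5% of all genes. The reverse held for 2 genes, A2ML1 and CSTA, against 23.6% of all genes. Of the 17 genes, 6 passed the filter through EWSR1::FLI1 low alone, so the filter raises that count and it is no support by itself. The median log2 fold change was 0.80 over the 29 inhibitor genes, with 23 above 0 and 6 below, and -0.05 over all genes tested.

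These counts depend on the filter and on single libraries. Of the 29 genes, 6 had a mean FPKM under 0.5 in EWSR1::FLI1 high and passed the filter through EWSR1::FLI1 low alone. They were SERPINA1, SERPINA3, SERPINA7, SERPIND1, PI3 and SLPI. All 6 were also among the 17 genes whose treated libraries all lay above the untreated ones. That count is thus raised by the filter, and it was not repeated without them. In the 23 genes that averaged 0.5 FPKM or more in EWSR1::FLI1 high, 17 log2 fold changes were above 0 and 6 below, with a median of 0.60. Of these 23 genes, 5 were called higher and 0 lower. Of all 14468 genes tested with such a mean, 4% were higher and 3.61% lower, with a median of -0.088. Leaving out each library in turn gave 3 to 10 genes called higher. A2M, SERPINA3 and PI3 passed in each of these fits. Of these 6 fits, SERPINE2 passed only in that without EWSR1::FLI1 low replicate 1, which also added SERPINB6, SERPINH1 and TIMP1.

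**Figure D1:**
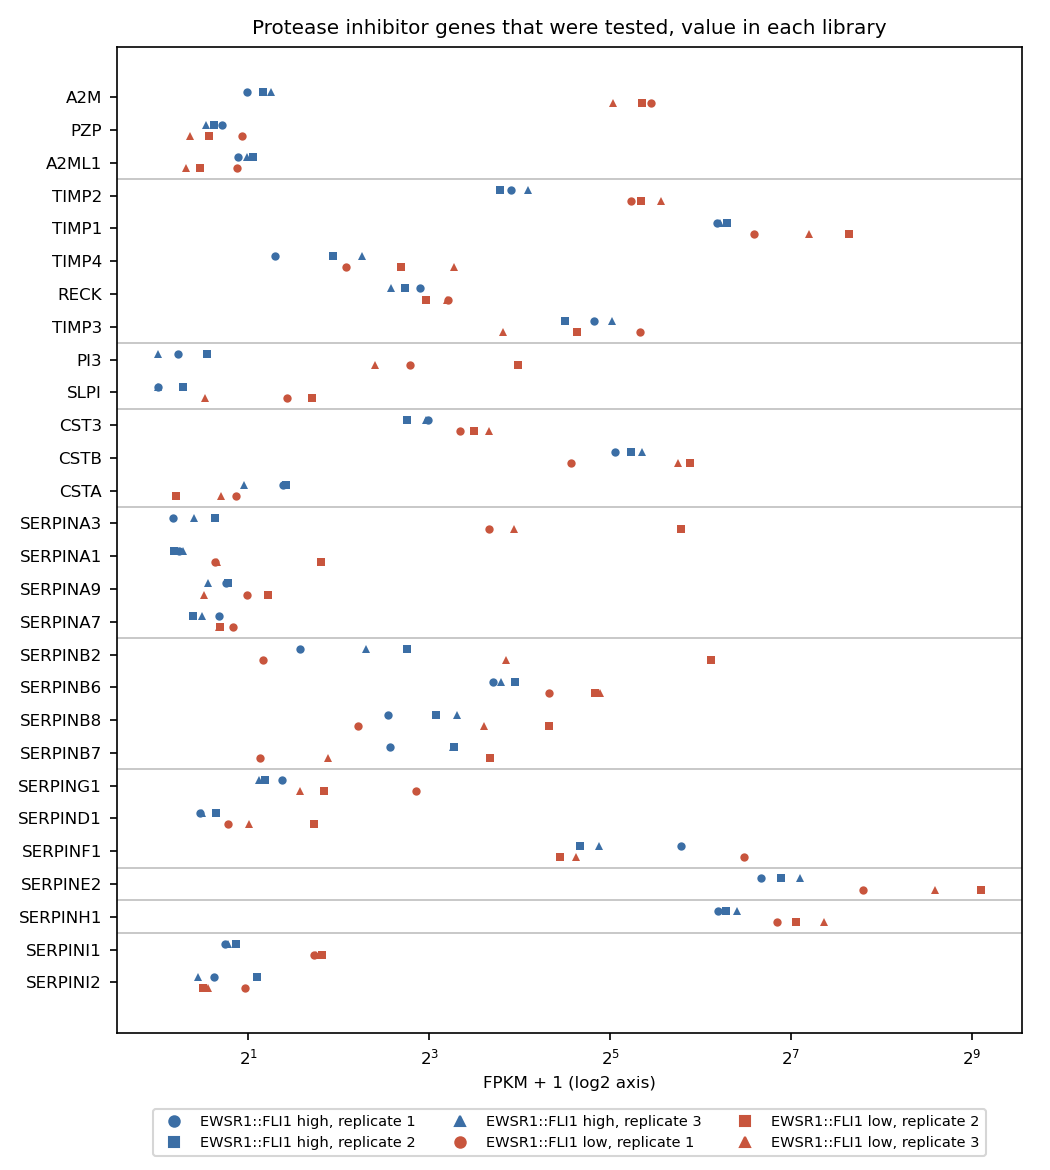
FPKM + 1 on a log2 axis for tested inhibitor genes, ordered by family, with 1 symbol per library (blue for EWSR1::FLI1 high, red for EWSR1::FLI1 low, and circle, square and triangle for replicates 1, 2 and 3). A2M, SERPINA3 and PI3 show a wide gap between the groups, while the SERPINB2, SERPINB7, SERPINB8 and SERPINF1 groups overlap.

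The other 21 inhibitor genes were at the edge of detection, between 0 and 0.955 FPKM and between 0 and 27 reads in any library, and were not tested. They were 7 of the 11 clade A serpins, 9 of the 13 clade B serpins (among them SERPINB5, the tumor suppressor maspin), the antithrombin gene SERPINC1, the antiplasmin gene SERPINF2, SERPINE3, CST6 and WFDC1. Summed over the 21 genes, the level was 5.51, 6.25 and 5.29 FPKM in EWSR1::FLI1 high and 9.92, 6.97 and 4.09 FPKM in EWSR1::FLI1 low, so the groups overlapped and EWSR1::FLI1 low replicate 1 was the highest. Only CST6 stayed under 3 reads in every library, where 3 reads correspond to 0.316 to 0.636 FPKM of this short gene. Such limits cover counting error only.

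A2M, which encodes alpha-2-macroglobulin, showed the clearest separation. It was measured at 0.983, 1.24 and 1.39 FPKM in EWSR1::FLI1 high and, in EWSR1::FLI1 low, at 42.7, 39.9 and 31.8 FPKM. Each treated library was far above each untreated library, and the spread within either group was small. The mean went from 1.20 ± 0.205 FPKM to 38.1 ± 5.68 FPKM (SD, n = 3), a ratio of 31.7, and the log2 fold change was 4.14 (SE 0.18, adjusted p = 8.47e-06). A2M lies on the minus strand of chr12:9220260-9268825 (GRCh37). The antisense transcript A2M-AS1, which overlaps an exon of A2M, stayed between 0.236 and 0.720 FPKM in all libraries. Neither relative of A2M passed the limit. A2ML1, which encodes an epithelial alpha-2-macroglobulin-like inhibitor, was measured at 0.853, 1.08 and 0.987 FPKM in EWSR1::FLI1 high and, in EWSR1::FLI1 low, at 0.839, 0.386 and 0.239 FPKM. Its groups did not overlap, yet the difference of -0.42 (SE 0.19) missed the limit with an adjusted p of 0.154. PZP, the pregnancy zone protein gene, averaged 0.544 FPKM in EWSR1::FLI1 high and 0.552 FPKM in EWSR1::FLI1 low (log2 fold change -0.01, adjusted p = 0.979).

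Clade E serpins block the plasminogen activators, the serine proteases that turn plasminogen into plasmin. SERPINE2, which encodes the thrombin and urokinase inhibitor protease nexin-1, was the most abundant inhibitor transcript in every library. Its values were 100, 118 and 137 FPKM in EWSR1::FLI1 high and 222, 549 and 385 FPKM in EWSR1::FLI1 low. All treated libraries were above all untreated ones, with replicate 1 the lowest of the treated. The mean of 118 ± 18 FPKM rose to 385 ± 163 FPKM (SD, n = 3), a ratio of 3.26 and a log2 fold change of 1.61 (SE 0.30, adjusted p = 0.00759). The log2 fold change was 1.96 once EWSR1::FLI1 low replicate 1 was left out (adjusted p = 0.000262), while leaving out any of the other 5 libraries gave an adjusted p between 0.0146 and 0.0358. The gene lies on the minus strand of chr2:224839762-224904035 (GRCh37). SERPINE3 was among the genes not tested.

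Neuroserpin, the product of SERPINI1, inhibits tissue plasminogen activator and is best known from neurons. SERPINI1 was measured at 0.671, 0.820 and 0.714 FPKM in EWSR1::FLI1 high and, in EWSR1::FLI1 low, at 2.32, 2.51 and 2.36 FPKM. The level was low throughout, yet the groups were well apart and the replicates lay close together. The mean rose from 0.735 ± 0.0768 to 2.40 ± 0.104 FPKM (SD, n = 3), and the log2 fold change was 0.97 (SE 0.15, adjusted p = 0.00281). The call was lost without EWSR1::FLI1 high replicate 1, 2 or 3 or without EWSR1::FLI1 low replicate 2, where the adjusted p lay between 0.0104 and 0.0194. SERPINI1 lies at chr3:167453031-167543357 (GRCh37, plus strand). SERPINI2, its neighbor in the clade, differed by -0.05 (adjusted p = 0.912).

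Among clade A serpins, most of which the liver secretes into plasma, SERPINA3 was the only gene called. SERPINA3 encodes alpha-1-antichymotrypsin, an acute phase inhibitor of cathepsin G and chymase. It was measured at 0.12, 0.552 and 0.325 FPKM in EWSR1::FLI1 high, from 2, 7 and 4 reads, and, in EWSR1::FLI1 low, at 11.7, 54.1 and 14.3 FPKM, from 165, 706 and 354 reads. The transcript went from near absence to a readily counted level in all treated libraries, with replicate 2 far above the others. The log2 fold change was 4.06 (SE 0.48, adjusted p = 0.000748). As a ratio of normalized counts summed over each group, the difference was 75.6 (95% exact interval 44 to 142, counting error only). SERPINA3 lies at chr14:95078721-95090392 (GRCh37, plus strand), at the edge of a cluster of 10 SERPINA genes. Neither of the other tested genes of the cluster passed the limit. SERPINA1, which encodes alpha-1-antitrypsin, was measured at 0.181, 0.136 and 0.210 FPKM in EWSR1::FLI1 high and, in EWSR1::FLI1 low, at 0.549, 2.48 and 0.574 FPKM (log2 fold change 0.80, SE 0.30, adjusted p = 0.0967). SERPINA9 differed by 0.21 (adjusted p = 0.518), and the remaining genes of the cluster were not tested. SERPINA7, the thyroxine-binding globulin gene, which lies elsewhere, also differed by 0.21 (adjusted p = 0.405).

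Metalloprotease inhibitors were well expressed. TIMP2, an inhibitor of MMP2 that also takes part in its activation by MMP14, was measured at 13.9, 12.7 and 16.0 FPKM in EWSR1::FLI1 high and, in EWSR1::FLI1 low, at 36.6, 39.5 and 46.1 FPKM. The groups were well separated, and no library stood out in either. The mean rose from 14.2 ± 1.67 to 40.7 ± 4.87 FPKM (SD, n = 3), a ratio of 2.86 and a log2 fold change of 1.45 (SE 0.18, adjusted p = 0.00107). Without EWSR1::FLI1 high replicate 2 the adjusted p was 0.0120. TIMP2 lies on the minus strand of chr17:76849059-76921469 (GRCh37), where CEP295NL, a gene on the same strand that shares exon sequence with it, reached 1.19 FPKM at most.

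TIMP1, a secreted inhibitor of many matrix metalloproteases, was measured at 71.5, 77.2 and 73.1 FPKM in EWSR1::FLI1 high and, in EWSR1::FLI1 low, at 95.3, 198 and 146 FPKM. Every treated library exceeded every untreated library, but the treated libraries were spread out and replicate 1 lay closest to the untreated ones. The mean was 74.0 ± 2.98 and 146 ± 51.5 FPKM (SD, n = 3), and the log2 fold change of 0.91 (SE 0.26) missed the limit with an adjusted p of 0.0370. It passed once EWSR1::FLI1 low replicate 1 was left out (1.19 on the log2 scale, adjusted p = 0.00100) and in limma-voom on recovered reads (adjusted p = 0.00370). TIMP3, which binds to the matrix, was measured at 27.3, 21.7 and 31.3 FPKM in EWSR1::FLI1 high and, in EWSR1::FLI1 low, at 39.2, 23.8 and 13.1 FPKM. Its treated libraries lay on both sides of the untreated ones (log2 fold change -0.19, SE 0.35, adjusted p = 0.753), and the sign depended on which treated library was left out. TIMP4 differed by 0.85 (SE 0.33, adjusted p = 0.107) with overlapping groups. It passed the limit only with a block for replicate number in the fit (adjusted p = 0.00758), and whether equal numbers are pairs was not settled. RECK, which encodes a membrane-anchored inhibitor, differed by 0.39 (SE 0.17, adjusted p = 0.140), with each treated library just above the untreated ones. TIMP1, TIMP3 and TIMP4 each lie within a synapsin gene on the opposite strand, and these synapsin genes (SYN1, SYN3 and SYN2) stayed between 0.102 and 0.715 FPKM.

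**Figure D2:**
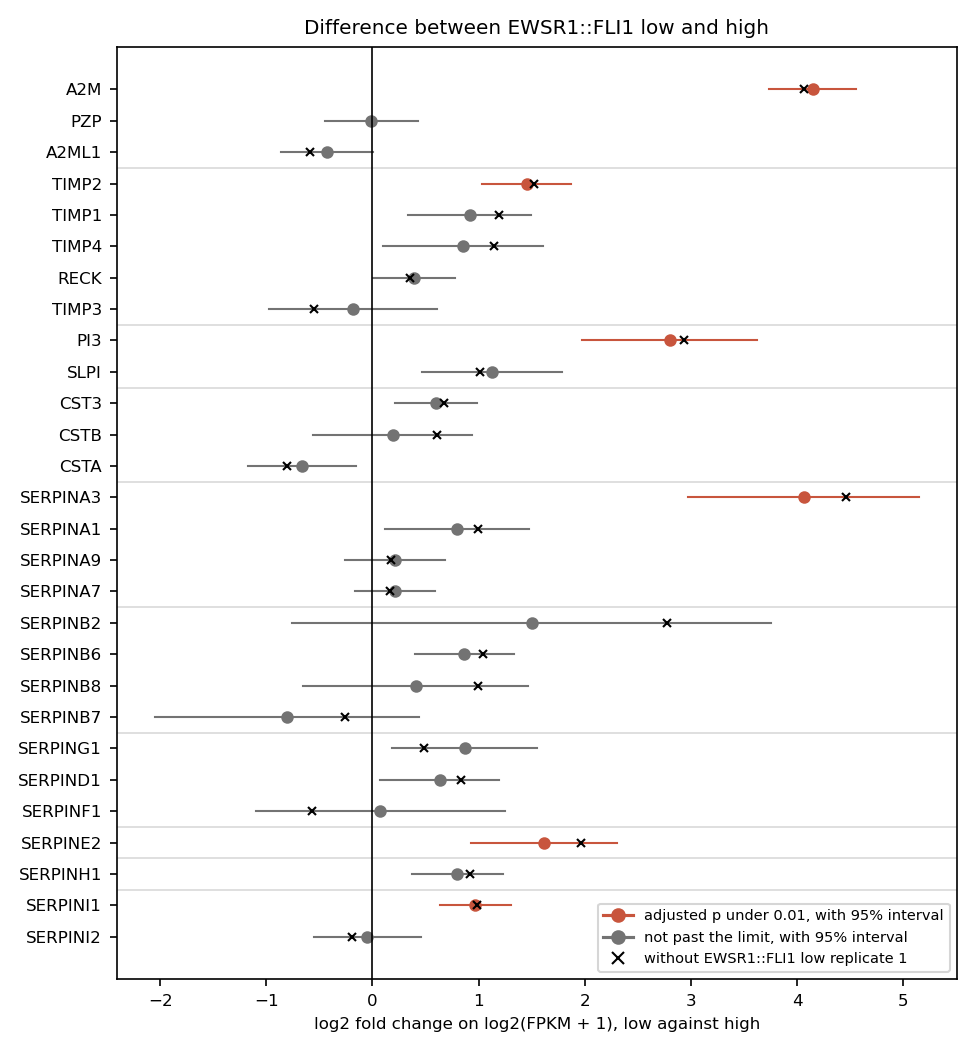
Log2 fold change on log2(FPKM + 1) of EWSR1::FLI1 low against EWSR1::FLI1 high for tested inhibitor genes, with 95% intervals from limma. The 6 genes drawn in red have an adjusted p under 0.01 and all lie above 0, and crosses give the fold change without EWSR1::FLI1 low replicate 1, which lies farthest from the full fit for SERPINB2. PZP has no cross because it fell under the filter without that library.

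The whey acidic protein family holds small secreted inhibitors of neutrophil elastase. PI3, which encodes elafin, was measured at 0.172, 0.453 and 0 FPKM in EWSR1::FLI1 high, from 1, 2 and 0 reads, and, in EWSR1::FLI1 low, at 5.89, 14.7 and 4.29 FPKM, from 29, 67 and 37 reads. PI3 was barely detected in the untreated libraries and present in all treated libraries. The log2 fold change was 2.80 (SE 0.36, adjusted p = 0.00122). The ratio of normalized counts was 35.6, with a wide exact 95% interval of 11.9 to 175 because only 3 reads were seen in EWSR1::FLI1 high. PI3 lies at chr20:43803543-43805185 (GRCh37, plus strand). SLPI, the secretory leukocyte protease inhibitor gene, gave 0, 1 and 0 reads in EWSR1::FLI1 high and 9, 11 and 4 reads in EWSR1::FLI1 low, or 1.70, 2.25 and 0.431 FPKM in the latter. The same direction was seen in all treated libraries, but the adjusted p was 0.0274 (log2 fold change 1.12, SE 0.29) and the ratio of normalized counts had an interval from 3.14 to 792. It passed the limit without EWSR1::FLI1 low replicate 3 (adjusted p = 0.00414). Where a library had 0 reads, up to 3 reads are allowed for, which correspond to 0.347 to 0.699 FPKM of PI3 and 0.323 to 0.650 FPKM of SLPI across libraries.

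Cystatins block lysosomal cysteine proteases, and none passed the limit. CST3, which encodes the secreted cystatin C, was measured at 6.91, 5.77 and 6.78 FPKM in EWSR1::FLI1 high and, in EWSR1::FLI1 low, at 9.12, 10.3 and 11.6 FPKM. The groups did not overlap, and the log2 fold change was 0.60 (SE 0.17, adjusted p = 0.0392). CSTB, the intracellular stefin B gene, was measured at 32.2, 36.4 and 40.0 FPKM in EWSR1::FLI1 high and, in EWSR1::FLI1 low, at 22.7, 58.1 and 52.8 FPKM. Replicate 1 of the treated group was below every untreated library and the other treated libraries were above them, so the log2 fold change of 0.19 (SE 0.33, adjusted p = 0.731) became 0.61 without it (adjusted p = 0.0149). CSTA, the epithelial stefin A gene, was measured at 1.61, 1.67 and 0.937 FPKM in EWSR1::FLI1 high and, in EWSR1::FLI1 low, at 0.816, 0.147 and 0.621 FPKM. All treated libraries were below the untreated ones at this low level, with 1 to 8 reads each, and the difference was -0.67 (SE 0.22, adjusted p = 0.0678).

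SERPINH1, also known as HSP47, is a chaperone of procollagen in the endoplasmic reticulum. It was measured at 72.2, 76.6 and 83.5 FPKM in EWSR1::FLI1 high and, in EWSR1::FLI1 low, at 114, 132 and 164 FPKM. The groups did not overlap and the means were 77.4 ± 5.73 and 137 ± 25.1 FPKM (SD, n = 3), but the log2 fold change of 0.80 (SE 0.19) missed the limit with an adjusted p of 0.0197. It passed without EWSR1::FLI1 low replicate 1, with an adjusted p of 0.00228. SERPINF1, which encodes the secreted anti-angiogenic protein PEDF, was measured at 53.9, 24.4 and 28.4 FPKM in EWSR1::FLI1 high and, in EWSR1::FLI1 low, at 88.0, 20.8 and 23.6 FPKM. Replicate 1 was by far the highest in both groups, and the log2 fold change was 0.07 (SE 0.52, adjusted p = 0.942). SERPING1, which encodes the C1 inhibitor of complement, was measured at 1.59, 1.27 and 1.17 FPKM in EWSR1::FLI1 high and, in EWSR1::FLI1 low, at 6.24, 2.58 and 1.97 FPKM, here with replicate 1 the highest of the treated (log2 fold change 0.87, SE 0.30, adjusted p = 0.0770, and 0.48 when that library was left out). SERPIND1, the heparin cofactor II gene, differed by 0.63 (SE 0.25, adjusted p = 0.106), and its groups did not overlap.

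Clade B serpins stay mostly inside the cell. Only 4 of the 13 were expressed enough to be tested and none passed the limit. SERPINB6, an inhibitor of cathepsin G and related proteases, was measured at 12.1, 14.5 and 12.9 FPKM in EWSR1::FLI1 high and, in EWSR1::FLI1 low, at 19.0, 27.5 and 28.5 FPKM. Each treated library exceeded each untreated one (log2 fold change 0.86, SE 0.21, adjusted p = 0.0203), and the adjusted p was 0.00134 without EWSR1::FLI1 low replicate 1. The other tested members, SERPINB2, SERPINB7 and SERPINB8, sit together in a cluster of 10 SERPINB genes at chr18:61144191-61687013 (GRCh37). SERPINB2, which encodes plasminogen activator inhibitor 2, was measured at 1.98, 5.73 and 3.93 FPKM in EWSR1::FLI1 high and, in EWSR1::FLI1 low, at 1.25, 68.1 and 13.4 FPKM. SERPINB7 was measured at 4.91, 8.64 and 8.62 FPKM in EWSR1::FLI1 high and, in EWSR1::FLI1 low, at 1.19, 11.7 and 2.68 FPKM. For SERPINB8, an inhibitor of furin, the values were 4.83, 7.42 and 8.93 FPKM in EWSR1::FLI1 high and 3.65, 19.1 and 11.2 FPKM in EWSR1::FLI1 low.

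In all of SERPINB2, SERPINB7 and SERPINB8, EWSR1::FLI1 low replicate 1 was the lowest and EWSR1::FLI1 low replicate 2 the highest of the 6 libraries, so that the treated group enclosed the untreated group. The log2 fold changes were 1.50 (SE 1.00, adjusted p = 0.328), -0.81 (SE 0.55, adjusted p = 0.341) and 0.41 (SE 0.47, adjusted p = 0.581). Without EWSR1::FLI1 low replicate 1 that of SERPINB2 was 2.77 (adjusted p = 0.0117), that of SERPINB7 was -0.26 (adjusted p = 0.720) and that of SERPINB8 was 0.99 (adjusted p = 0.0317). Without EWSR1::FLI1 low replicate 2 they were 0.30, -1.53 (adjusted p = 0.01005) and -0.062, and none passed the limit. HMSD, a neighbor that shares exons with SERPINB8 on the same strand, was measured at 6.10, 6.42 and 7.23 FPKM in EWSR1::FLI1 high and, in EWSR1::FLI1 low, at 3.06, 2.73 and 2.57 FPKM. Reads in the shared exons could have been counted for either gene, so the value of SERPINB8 is uncertain.

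**Figure D3:**
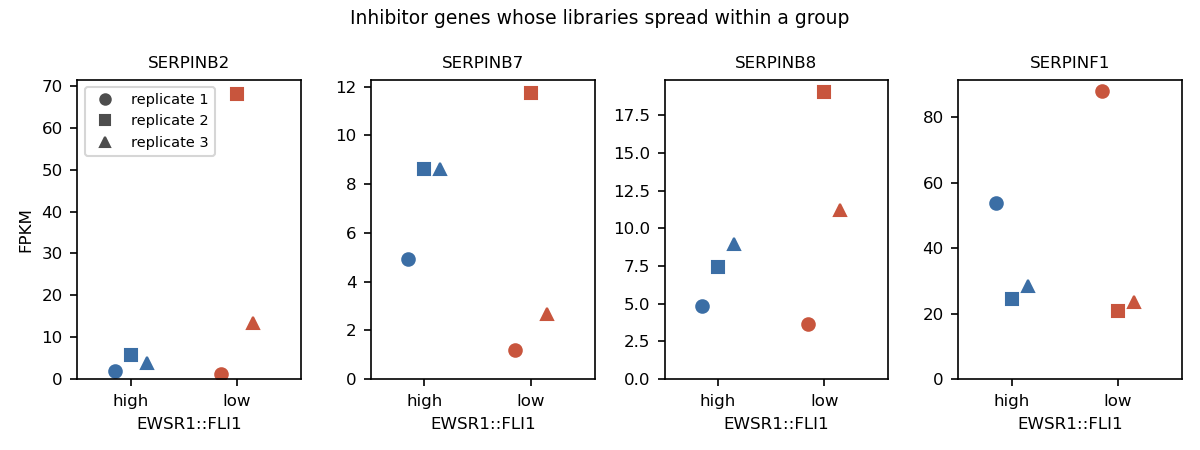
FPKM in each library for SERPINB2, SERPINB7, SERPINB8 and SERPINF1, with blue for EWSR1::FLI1 high, red for EWSR1::FLI1 low, and circle, square and triangle for replicates 1, 2 and 3. In the SERPINB genes the treated libraries of replicates 1 and 2 are the lowest and highest of all 6, and SERPINF1 is highest in replicate 1 of both groups.

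Upstream sequences were read for these genes because EWSR1::FLI1 is known to bind GGAA repeats, and AP-1, TEAD, STAT and SMAD factors are known regulators of matrix genes. The RefSeq promoter table (GRCh38.p14, another build than that of the values) held 34 of the 50 inhibitor genes, and the 250 bases before the start were searched on both strands. The letters were GGAAGGAA for a GGAA repeat, TGANTCA for AP-1, GGAATG for TEAD, TTCNNNGAA for STAT, CAGACA for SMAD and TATAAA for a TATA box. Called genes with an entry (SERPINA3, SERPINE2 and SERPINI1) held none of them, and the first pair is printed. The other sequences are those of TIMP1, the only inhibitor gene with GGAAGGAA, and of the SERPINB genes whose treated libraries enclosed the untreated ones. Capitals mark the searched letters or their reverse complement.
SERPINA3, chr14:94612141-94612390, plus strand: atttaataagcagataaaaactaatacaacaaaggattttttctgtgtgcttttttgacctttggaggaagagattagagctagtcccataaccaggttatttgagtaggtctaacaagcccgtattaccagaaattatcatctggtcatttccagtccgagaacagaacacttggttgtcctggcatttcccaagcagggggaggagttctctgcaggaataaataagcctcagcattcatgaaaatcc
SERPINE2, chr2:224031479-224031728, minus strand: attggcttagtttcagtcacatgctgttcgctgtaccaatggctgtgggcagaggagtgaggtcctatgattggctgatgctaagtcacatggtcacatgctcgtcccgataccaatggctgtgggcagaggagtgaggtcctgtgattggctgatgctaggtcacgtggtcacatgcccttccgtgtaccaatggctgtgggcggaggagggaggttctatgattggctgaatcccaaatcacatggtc
TIMP1, chrX:47582186-47582435, plus strand: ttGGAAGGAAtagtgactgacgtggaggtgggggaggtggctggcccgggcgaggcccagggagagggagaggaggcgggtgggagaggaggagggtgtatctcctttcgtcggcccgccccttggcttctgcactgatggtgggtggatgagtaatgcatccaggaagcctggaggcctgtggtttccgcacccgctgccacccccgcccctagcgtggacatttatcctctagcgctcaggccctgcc
SERPINB2, chr18:63887455-63887704, plus strand: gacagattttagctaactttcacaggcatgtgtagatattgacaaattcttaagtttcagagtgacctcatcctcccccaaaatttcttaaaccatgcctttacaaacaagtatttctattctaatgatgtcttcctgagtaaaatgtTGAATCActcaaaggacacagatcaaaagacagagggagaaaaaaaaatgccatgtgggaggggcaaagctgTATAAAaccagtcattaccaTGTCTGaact
SERPINB7, chr18:63752807-63753056, plus strand: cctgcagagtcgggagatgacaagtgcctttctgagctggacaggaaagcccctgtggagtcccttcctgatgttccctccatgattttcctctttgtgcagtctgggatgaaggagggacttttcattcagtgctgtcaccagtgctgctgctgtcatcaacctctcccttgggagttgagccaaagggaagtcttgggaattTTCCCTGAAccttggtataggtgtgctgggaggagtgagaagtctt
SERPINB8, chr18:63969831-63970080, plus strand: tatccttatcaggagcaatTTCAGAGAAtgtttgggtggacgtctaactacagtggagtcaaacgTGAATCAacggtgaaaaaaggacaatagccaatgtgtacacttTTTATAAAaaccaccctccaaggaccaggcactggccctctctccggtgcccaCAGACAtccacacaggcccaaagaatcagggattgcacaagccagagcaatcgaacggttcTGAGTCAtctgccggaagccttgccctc

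GGAAGGAA was present in 1 of the 34 inhibitor promoters and in 2.99% of the 27305 promoters of the table. The AP-1 letters were found in 7 of 34 (6.60% of all promoters), in SERPINB2, SERPINB5, SERPINB8, SERPINB12, SERPINB13, SERPINE3 and SERPINI2. The STAT letters were in 8 (6.78% of all), the SMAD letters in 8 (13.6% of all), the TATA letters in 6 (11.1% of all) and the TEAD letters in 4 (11.9% of all). In SERPINB2 the AP-1 letters begin 102 bases and the TATA letters 30 bases before the start. In SERPINB8 the AP-1 letters occur at 185 and 28 bases before the start, and the TATA letters overlap on the opposite strands. The SERPINB promoters belong to neighbors of common origin and are not independent. A match to these letters describes the sequence and says nothing about binding in these cells.

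The summed level of all 50 inhibitor genes was 429, 441 and 480 FPKM in EWSR1::FLI1 high and 771, 1492 and 1081 FPKM in EWSR1::FLI1 low. Each treated library was above each untreated one, with replicate 1 the lowest of the treated. The mean was 450 ± 26.7 FPKM in EWSR1::FLI1 high and 1115 ± 361 FPKM in EWSR1::FLI1 low (SD, n = 3), a ratio of 2.48, and an exact two-sided permutation test gave p = 0.1, the smallest that 3 against 3 allows. SERPINE2 made up 23.4 to 28.4% of the sum in EWSR1::FLI1 high and 28.7 to 36.8% in EWSR1::FLI1 low. A2M made up 0.229 to 0.289% in EWSR1::FLI1 high and 5.53, 2.68 and 2.94% in EWSR1::FLI1 low. SERPINH1, which is in the group by name but inhibits no protease, made up 16.8 to 17.4% in EWSR1::FLI1 high and 8.84 to 15.1% in EWSR1::FLI1 low. In these bulk samples a change in the share of cells that express a gene and a change in RNA per cell cannot be told apart.

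**Figure D4:**
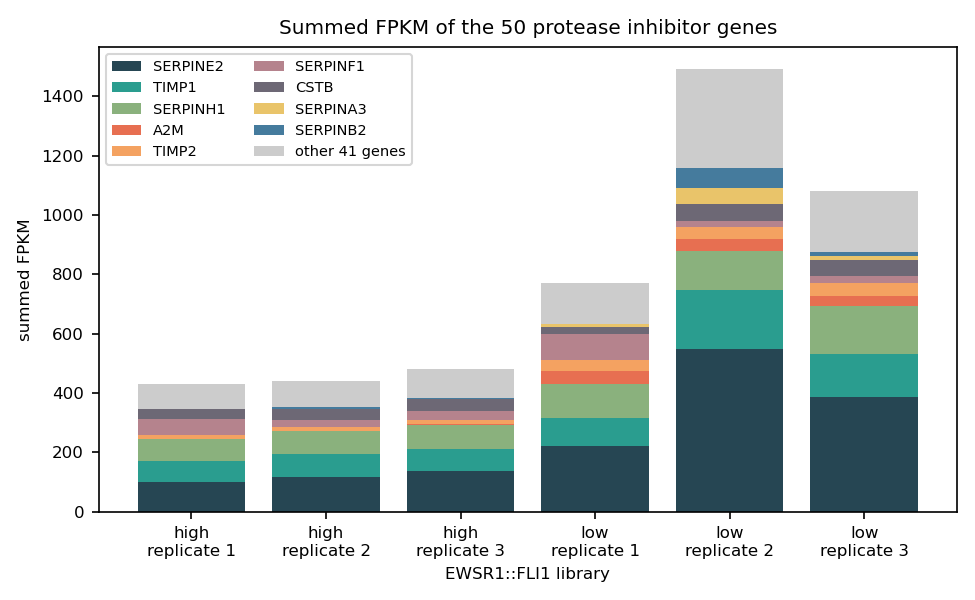
Stacked FPKM of the 50 inhibitor genes in each library, with 9 genes shown by color and the others in grey. SERPINE2, TIMP1 and SERPINH1 form most of each bar, and the sums run from 429 to 480 in EWSR1::FLI1 high and from 771 to 1492 in EWSR1::FLI1 low.

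The proteases that these inhibitors are known to meet were counted from lists. These lists were chosen with earlier results of these data known, so their counts are no independent evidence. In the list of plasminogen activation and related serine proteases, 6 of 10 tested genes rose and 0 fell, with a median log2 fold change of 1.71. Of all genes tested, 4.51% were called higher and 3.37% lower, with a median of -0.05. PLAU, which encodes urokinase, a target of SERPINE2, was measured at 7.26, 7.79 and 7.29 FPKM in EWSR1::FLI1 high and, in EWSR1::FLI1 low, at 49.7, 91.7 and 70.6 FPKM (log2 fold change 3.04, SE 0.23, adjusted p = 0.000112). PLAT, which encodes tissue plasminogen activator, was measured at 6.31, 7.08 and 8.14 FPKM in EWSR1::FLI1 high and, in EWSR1::FLI1 low, at 28.1, 150 and 93.1 FPKM (log2 fold change 3.20, SE 0.50, adjusted p = 0.00325). Protease and inhibitor were thus both higher in the treated libraries. The secreted serine proteases HTRA1 (log2 fold change 4.24, adjusted p = 0.00154) and PRSS23 (3.03, adjusted p = 0.000606) also rose, as did FAP (1.66, adjusted p = 0.00901), a cell surface peptidase, and F2R, which is a thrombin receptor and not a protease. PLAUR, the urokinase receptor gene, was measured at 8.77, 10.4 and 12.6 FPKM in EWSR1::FLI1 high and, in EWSR1::FLI1 low, at 10.2, 92.3 and 55.8 FPKM, where replicate 1 lay among the untreated values (adjusted p = 0.0884). The calls of PLAU and PRSS23 held with each library left out. Those of F2R (without EWSR1::FLI1 high replicate 2, 0.0129) and HTRA1 (without EWSR1::FLI1 low replicate 3, 0.0118) were lost once. That of PLAT was lost without any EWSR1::FLI1 high library or EWSR1::FLI1 low replicate 3 (adjusted p 0.0102 to 0.0191), and that of FAP without any library except EWSR1::FLI1 low replicate 1 (0.0175 to 0.0466).

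Of the metalloproteases of the membrane and ADAM list, 4 of 10 tested genes rose and 0 fell, with a median of 0.60. Over all genes tested the shares were 4.51% and 3.37%, with a median of -0.05. MMP2, a gelatinase bound by TIMP2, was measured at 3.97, 4.68 and 5.54 FPKM in EWSR1::FLI1 high and, in EWSR1::FLI1 low, at 26.8, 34.0 and 28.5 FPKM (log2 fold change 2.43, SE 0.19, adjusted p = 0.000112). MMP14, its membrane-bound activator, was measured at 11.5, 10.5 and 11.4 FPKM in EWSR1::FLI1 high and, in EWSR1::FLI1 low, at 36.1, 68.8 and 52.0 FPKM (log2 fold change 2.09, SE 0.24, adjusted p = 0.000667). ADAM12 (1.79, adjusted p = 0.00744) and MMP16 (1.12, adjusted p = 0.00331) were the other genes that rose. Of cathepsins, calpains and legumain, the targets of cystatins among them, 3 of 19 tested genes rose and 0 fell (4.51% and 3.37% of all genes). The median was 0.52, and the genes were CTSO (1.86, adjusted p = 0.000589), CTSF (1.52, adjusted p = 0.00145) and CAPN5 (1.51, adjusted p = 0.000779). Neutrophil serine proteases and granzymes, the classical targets of PI3, SLPI and several clade B serpins, were close to absent: 1 of 7 was tested, GZMA, at 0.143 to 0.957 FPKM, and it was not called. Among the called metalloproteases and cathepsins, ADAM12 passed only when EWSR1::FLI1 low replicate 1 was the library left out (otherwise 0.0178 to 0.0361), MMP16 was lost without any EWSR1::FLI1 high library (adjusted p 0.0177 to 0.0224) and CTSF without EWSR1::FLI1 high replicate 2 (0.0114).

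**Figure D5:**
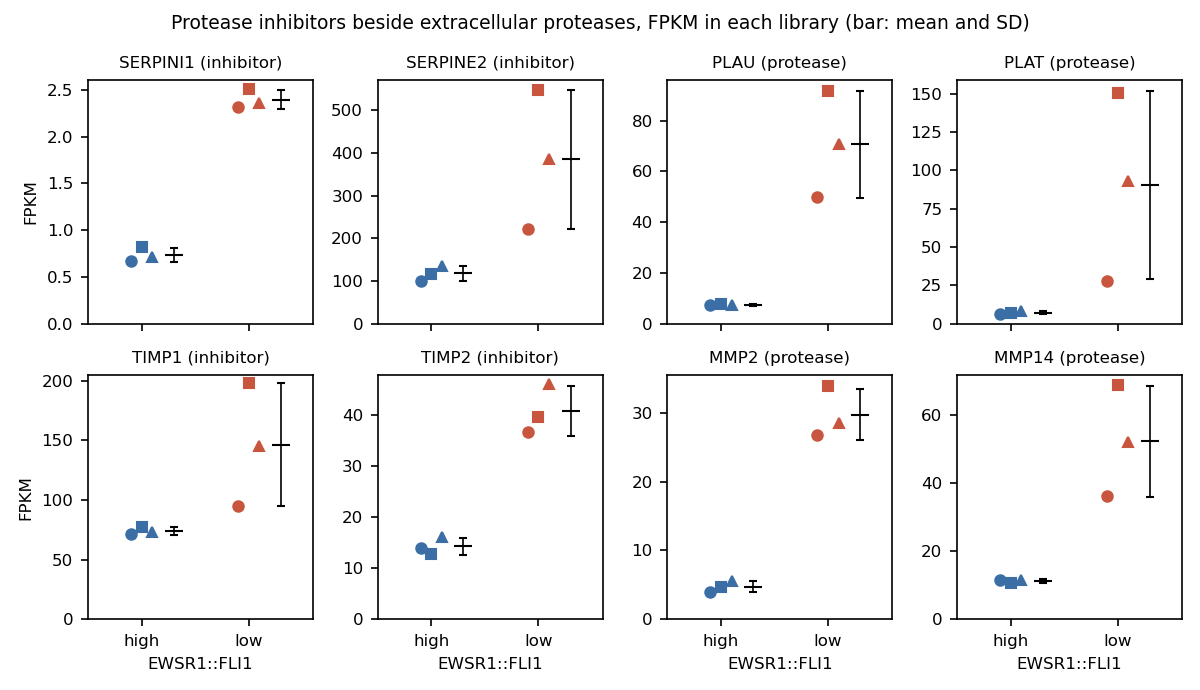
FPKM of the inhibitors SERPINI1, SERPINE2, TIMP1 and TIMP2 beside the proteases PLAU, PLAT, MMP2 and MMP14 in each library (circle, square and triangle for replicates 1, 2 and 3, bars for mean ± SD, n = 3). In all 8 genes the 3 treated libraries lie above the 3 untreated ones, and replicate 1 is the lowest of the treated.

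Several of the inhibitors are best known from other cell types, SERPINA3 from liver and PI3 and SLPI from epithelia. Few markers of these and other cell types could be tested. Of all genes tested, 4.51% were called higher and 3.37% lower, so the lack of calls among so few markers decides nothing. Of 6 hepatocyte markers, 2 were tested (APOA1 and TTR) and none was called, and the 6 summed to 1.30 to 1.87 FPKM in EWSR1::FLI1 high and 2.45 to 3.5 FPKM in EWSR1::FLI1 low. APOA1, an apolipoprotein gene, gave 1, 0 and 0 reads in EWSR1::FLI1 high and 1, 11 and 18 reads in EWSR1::FLI1 low. It differed by 0.85 (adjusted p = 0.0728) and passed the limit without EWSR1::FLI1 low replicate 1 (1.21, adjusted p = 0.00109), whereas albumin (ALB) was at 2 to 7 reads in every library. Of 6 epithelial markers, 1 was tested and none called, with sums of 1.14 to 2.28 and 1.89 to 2.14 FPKM, KRT14 was at 1 or 2 reads, and KRT19 was at 0 to 3 reads apart from 11 in EWSR1::FLI1 low replicate 3. Of 6 blood cell markers, 1 was tested and none called (0.789 to 1.84 and 1.43 to 2.97 FPKM). Of 4 endothelial markers 1 was tested, PECAM1, and none called (0.746 to 1.04 and 1.32 to 2.34 FPKM). PECAM1 was measured at 0.278, 0.366 and 0.348 FPKM in EWSR1::FLI1 high and, in EWSR1::FLI1 low, at 0.934, 1.56 and 0.879 FPKM. Its groups did not overlap, and its adjusted p of 0.0333 (log2 fold change 0.66) missed the limit of 0.01. The summed hepatocyte and endothelial markers were higher in each treated library than in each untreated one, at levels far under those of SERPINA3 or A2M in the treated libraries, and their part in the results was not tested.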

How the data were processed

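RNAseq of 6 samples of A673/TR/shEF cells was used, 3 per group, with groups and replicate numbers taken from the sample labels. The authors aligned reads to GRCh37, and the submitters' processing notes name STAR 2.5.0b, bedtools 2.17.0, Cufflinks 2.2.1 and DESeq2 1.6.3. The authors deposited FPKM per gene symbol and library, without pooling replicates. A second deposited table holds the authors' own comparison. From it only the signal column was used, which the authors made by averaging each gene's normalized counts over all libraries. Its log2 fold change, standard error, score, p-value, adjusted p-value and status were not used. Multiplying the deposited FPKM by the ratio of that mean to the mean FPKM, and then by a size factor per library (0.829 to 1.67), gave whole reads within 0.1 reads, and read numbers in the text are these recovered reads, from 6980361 to 16658933 per library. Intervals and limits from them cover counting error only.

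The test was limma 3.58.1 (R 4.3.3) with a mean-variance trend, run on log2(FPKM + 1) of the 15504 genes whose FPKM averaged 0.5 or more. EWSR1::FLI1 low was compared with EWSR1::FLI1 high, and p-values were adjusted by the Benjamini-Hochberg method, with a limit of 0.01. Recovered reads entered limma-voom as an alternative, and DESeq2 was not run. The procedure was tried on simulated normal values with the same spread in both groups. The real libraries spread more widely in EWSR1::FLI1 low, so the simulation does not vouch for calls under this unequal spread. A single summed value was compared by an exact permutation test (scipy 1.17.1). The alternatives tried were a pseudocount of 0.1, other filters, median-ratio scaling, quantile normalization, no trend, a block for replicate number, each library left out in turn, limma-voom on recovered reads and a limit of 0.05.

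The inhibitor genes and all gene lists were chosen with earlier results of these data known, so their counts describe the data and are no independent evidence. All inhibitor genes are counted, and an item withheld from the text is not reported here by name. Values are given for those with an adjusted p under 0.01 or a mean FPKM of at least 10, for A2M, TIMP1 and PI3, and for up to 5 called genes of each other list with the largest change. Other inhibitor genes whose libraries are printed were chosen after their values were seen. Gene positions are from GENCODE 44 on GRCh37 and upstream sequences from RefSeq (GRCh38.p14), which held 34 of the 50 genes.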

Additional observations from a re-analysis of the deposited data

How the results depend on the processing

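The 7 inhibitor genes higher in EWSR1::FLI1 low all passed with a pseudocount of 0.1, a filter at 1 FPKM, eBayes without trend, quantile normalization, a replicate block and limma-voom on recovered reads. Median-ratio scaling gave every library the same factor and so tested nothing. The count was 11 under quantile normalization (with CST3, SERPINB6, SERPINH1 and TIMP1), 12 at an adjusted p limit of 0.05, 10 in limma-voom and 5 without a filter on low values, which raised the number of genes tested to 24488 and lost SERPINE2 among others. Leaving out 1 library at a time gave 3 to 10 genes called higher, 3 without EWSR1::FLI1 high replicate 2 and 10 without EWSR1::FLI1 low replicate 1. No inhibitor gene was called lower under any of these settings. With the replicate block, 8 inhibitor genes were called, TIMP4 being added (adjusted p = 0.00758), ANOS1 outside the rule was lost (0.0112), and the FLI1 log2 fold change of -1.57 had an adjusted p of 0.000603. Libraries of equal number correlated at 0.27, 0.09 and 0.12 and those of different number at -0.29 to 0.19. These ranges overlap and do not settle whether equal numbers are pairs, so the block is given only as a setting.

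Under these alternatives the direction turned only when a library was left out, for 6 genes. In the fits with a library left out, log2 fold changes ranged from -0.056 to 0.12 for PZP, -0.053 to 0.61 for CSTB and -0.55 to 0.20 for TIMP3. They ranged from -0.062 to 0.99 for SERPINB8, -0.57 to 0.44 for SERPINF1 and -0.19 to 0.14 for SERPINI2. Over all genes, 700 were called higher and 522 lower, against 456 and 297 without a filter, 992 and 1000 under quantile normalization, 916 and 786 with the replicate block, 1245 and 1146 in limma-voom, and 308 to 1527 higher and 157 to 807 lower with a library left out. The cause of these shifts was not tested. With 3 libraries per group and 21 inhibitor genes under the filter, small differences and weakly expressed inhibitors could not be resolved.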

Other observations

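Other inhibitors lie outside the name rule. Of 36 such genes on a list, 13 were tested, 7 were higher in EWSR1::FLI1 low and 0 lower (4.51% and 3.37% of all genes). The median log2 fold change was 1.08, against -0.05 over all genes. SPOCK1, which encodes the proteoglycan testican, was measured at 0.790, 0.676 and 0.615 FPKM in EWSR1::FLI1 high and, in EWSR1::FLI1 low, at 12.4, 15.0 and 11.8 FPKM (log2 fold change 3.05, SE 0.16, adjusted p = 2.43e-05 with limma). The treated libraries lay close together and far above the untreated ones. TFPI, the tissue factor pathway inhibitor gene, was measured at 26.9, 29.2 and 30.2 FPKM in EWSR1::FLI1 high and, in EWSR1::FLI1 low, at 81.6, 122 and 119 FPKM (1.84, SE 0.21, adjusted p = 0.000557). PCSK1N, an inhibitor of a prohormone convertase, differed by 1.65 (adjusted p = 0.00123), CD109, a membrane-anchored relative of A2M, by 1.20 (adjusted p = 0.00415) and LXN, the carboxypeptidase inhibitor latexin, by 1.15 (adjusted p = 0.00950). The called genes also included ANOS1, which encodes an extracellular matrix protein with a whey acidic protein domain, and BST2, an interferon-induced membrane protein that is not known as a protease inhibitor. The calls of SPOCK1, TFPI and PCSK1N held with each library left out. Those of CD109, LXN and ANOS1 were lost without any of the 3 EWSR1::FLI1 high libraries or EWSR1::FLI1 low replicate 2 or 3 (adjusted p 0.0111 to 0.0431), and that of BST2 without any of the EWSR1::FLI1 high libraries or EWSR1::FLI1 low replicate 3 (0.0170 to 0.0372) and in limma-voom (0.0331).

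Receptors that take up inhibitor and protease complexes were measured in a list of 11 genes. Of 9 tested, 2 were higher in EWSR1::FLI1 low and 0 lower, with a median of 0.90. Over all genes tested the shares were 4.51% and 3.37%, with a median of -0.05. LRP1, the receptor for A2M and for serpin complexes, was measured at 2.5, 1.62 and 1.67 FPKM in EWSR1::FLI1 high and, in EWSR1::FLI1 low, at 8.36, 6.98 and 5.0 FPKM (log2 fold change 1.40, SE 0.21, adjusted p = 0.00264), and SORL1 differed by 1.34 (adjusted p = 0.00128). In both genes each treated library was above each untreated one. Of 11 cofactors and partners of inhibitors, 10 were tested, 4 were higher and 0 lower (4.51% and 3.37% of all genes), with a median of 1.14. The collagen-modifying genes P4HA2 (3.02, adjusted p = 0.000612), FKBP10 (1.71, adjusted p = 0.000389) and P3H1 (1.36, adjusted p = 0.00150) act on procollagen, the client of SERPINH1, and SDC1 (1.34, adjusted p = 0.00258) encodes a heparan sulfate proteoglycan. P4HA2 was measured at 4.37, 5.98 and 6.11 FPKM in EWSR1::FLI1 high and, in EWSR1::FLI1 low, at 28.9, 82.4 and 56.2 FPKM, and replicate 1 was again the lowest of the treated libraries. The calls of P4HA2 and FKBP10 held with each library left out, while those of LRP1, SORL1, P3H1 and SDC1 were lost in 2 or 3 of these fits, without EWSR1::FLI1 high replicate 2 or 3 for each, and also without EWSR1::FLI1 high replicate 1 for P3H1 and EWSR1::FLI1 low replicate 3 for SDC1 (adjusted p 0.01004 to 0.0184).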
